A study of Drosophila melanogaster with 2 samples.

Results

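The chemosensory receptor genes of Drosophila melanogaster are described here by where Engrailed-GFP regions lay around them in embryos. The members were taken by symbol from the Ensembl annotation of the BDGP6 (dm6) genome, as every protein-coding gene named Or, Gr or Ir followed by a digit, together with Orco. The rule gave 180 genes of 13945 protein-coding genes on the main chromosome arms, and they fell into 60 odorant receptor (Or, with Orco), 60 gustatory receptor (Gr) and 60 ionotropic receptor (Ir) genes. A further 7 matching symbols were annotated as pseudogenes and were not counted. The choice of members used no measured value. Chromatin immunoprecipitation with sequencing (ChIP-seq) had been carried out on whole embryos, males and females together and aged 0 to 16 h, of a transgenic line in which the segmentation protein Engrailed carries a C-terminal GFP tag. There was 1 group of 2 libraries, biological replicates 1 and 3, with no second genotype or treatment. The antibody was described as anti-GFP, whereas the antibody label reads en. Because whole embryos were used, a region does not tell in which cells the protein was bound.

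Chemosensory receptors are membrane proteins through which sensory neurons detect chemicals. An Or protein forms a ligand-gated ion channel with the shared co-receptor Orco, most Gr proteins serve taste neurons or the detection of carbon dioxide, and Ir proteins, which are relatives of glutamate receptors, work with co-receptors such as Ir25a, Ir8a and Ir76b. Each sensory neuron expresses 1 or a few receptor genes, and that choice is made by transcription factors, several of them with a homeodomain. Engrailed is a homeodomain repressor known from the posterior compartment of every segment, and its homeodomain binds the core word TAATTA. In embryos the olfactory and taste neurons of the larva form late, and most receptors are known from larval or adult organs.

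Regions were taken from the authors' lists, in which each region has a summit, a signal value (the authors' own measure of enrichment, on a scale the sources used here do not define) and a rank by that signal. The stringent list, from the irreproducible discovery rate (IDR) procedure that compares replicates, held 2226 regions and matched the top of the pooled list by signal. The pooled list held 30000 regions and mixes peaks with background, with signals from 16.7 to 1020, and each replicate has its own list of 30000 regions. A gene was called positive when a summit lay in its body or in the 1000 bp upstream of it, and separately in its body or 5000 bp upstream. With 2 libraries of 1 group no test between conditions was possible, so counts stand beside the same counts over all protein-coding genes. The 95% intervals are exact (Clopper-Pearson). Where a count of 0 is said to allow a share, that share is 3 counts of the total. Both cover counting error only.

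The sequences at 7 of the 14 IDR summits in receptor windows are printed first, to show the stretches on which the region counts below rest. Each line gives 61 bases of the plus strand of dm6, read from the RefSeq release 6 genome, with the summit base in the centre as a capital. The summits shown lie outside annotated exons. Those in the windows of Gr47b, Ir48c and Ir54a also lie outside exons but are not printed.
Or88a: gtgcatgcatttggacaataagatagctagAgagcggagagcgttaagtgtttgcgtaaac
Gr93a: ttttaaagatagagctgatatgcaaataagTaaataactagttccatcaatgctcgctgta
Gr93c and Gr93d: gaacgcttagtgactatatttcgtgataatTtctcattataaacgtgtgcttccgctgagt
Gr94a: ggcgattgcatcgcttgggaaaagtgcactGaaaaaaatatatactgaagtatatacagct
Gr5a: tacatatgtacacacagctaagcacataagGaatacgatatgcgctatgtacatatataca
Ir76a: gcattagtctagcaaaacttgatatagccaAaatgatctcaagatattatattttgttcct
Ir7f: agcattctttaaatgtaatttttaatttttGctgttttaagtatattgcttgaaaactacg
These stretches lay at 3R:14108624-14108684 for Or88a, 3R:21828362-21828422 for Gr93a, 3R:21849118-21849178 for Gr93c and Gr93d, 3R:23048732-23048792 for Gr94a, X:5678045-5678105 for Gr5a, 3L:19794442-19794502 for Ir76a, X:7888868-7888928 for Ir7f. The names are those of the receptor genes whose 5000 bp window held the summit, not of genes shown to be regulated from it. Within 50 bp of the summit, TAATTA was found at 0 of the 14 IDR summits in receptor windows, which allows a share of up to 21.4%, against 172 of all 2226 IDR summits (7.73%), so that 14 summits are too few to set the shares apart. The related word CAATTA, read on both strands, was found at 1 of the 14, near the Gr94a summit and outside the 61 bases shown, against 225 of 2226 (10.1%).

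The core word was found directly upstream of many receptor genes. The stretches below are printed to show it for 1 Or, 2 Gr and 2 Ir genes whose annotated start lies in an untranslated exon. Each gives 60 bases of the gene's own strand, 5′ to 3′, ending upstream of the annotated start of the gene, with TAATTA in capitals.
Or92a: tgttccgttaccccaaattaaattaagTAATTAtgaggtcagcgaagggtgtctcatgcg
Gr5a: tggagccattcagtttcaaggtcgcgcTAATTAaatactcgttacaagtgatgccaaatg
Gr8a: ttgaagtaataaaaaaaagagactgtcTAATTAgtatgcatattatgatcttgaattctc
Ir21a: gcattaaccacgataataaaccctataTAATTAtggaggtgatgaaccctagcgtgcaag
Ir68a: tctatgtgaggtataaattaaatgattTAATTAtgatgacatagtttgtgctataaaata
They lay at 3R:20504660.0-20504719.0 for Or92a, X:5680432.0-5680491.0 for Gr5a, X:9226852.0-9226911.0 for Gr8a, 2L:25230.0-25289.0 for Ir21a, 3L:11236352.0-11236411.0 for Ir68a (dm6, RefSeq release 6), with the word 96, 153, 253, 102 and 161 bp upstream of the start in the same order. Or92a is known as a receptor for vinegar odours, Gr5a as a receptor for the sugar trehalose, Gr8a as part of the receptor for the plant toxin canavanine, Ir21a as a cooling receptor and Ir68a as a receptor needed to sense moist air. In the first 300 bp upstream, 84 of the 180 receptor genes (46.7%) held at least 1 copy, against 3196 of 13945 protein-coding genes (22.9%). The share was 37 of 60 for Gr (61.7%), 29 of 60 for Or (48.3%) and 18 of 60 for Ir (30%). Among the 84 genes the copy nearest to the start lay a median of 106 bp upstream, and 11 of them held 2 or more copies, with 4 upstream of Gr98d. The Or19a and Or19b stretches around the word had the same letters, so copies in duplicated genes are not independent.

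The excess of the word lay close to the start, and rearrangements of its letters did not show it to that extent. In the 300 bp beyond the first 1000 bp upstream, TAATTA was found for 10.6% of receptor genes and 15.5% of protein-coding genes, and within the first 300 bp of the gene for 10% and 11.6%. The words TTAATA and ATTAAT, which hold the same letters in another order and were read on both strands, were found in the first 300 bp upstream of 39.4% and 28.9% of receptor genes, against 37.9% and 22.4% of protein-coding genes. The median GC content of that stretch was 37.7% for receptors and 37% for protein-coding genes. CAATTA, read on both strands, was also more frequent over all members, at 54.4% against 27.6%, but in another family order, with 65% of Ir, 60% of Or and 38.3% of Gr genes. Among the 383 other genes that start with a coding base it was found for 37.1%. TAATTA and CAATTA can overlap in 1 stretch. A word match is a description of letters and not a site of binding.

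**Figure D1:**
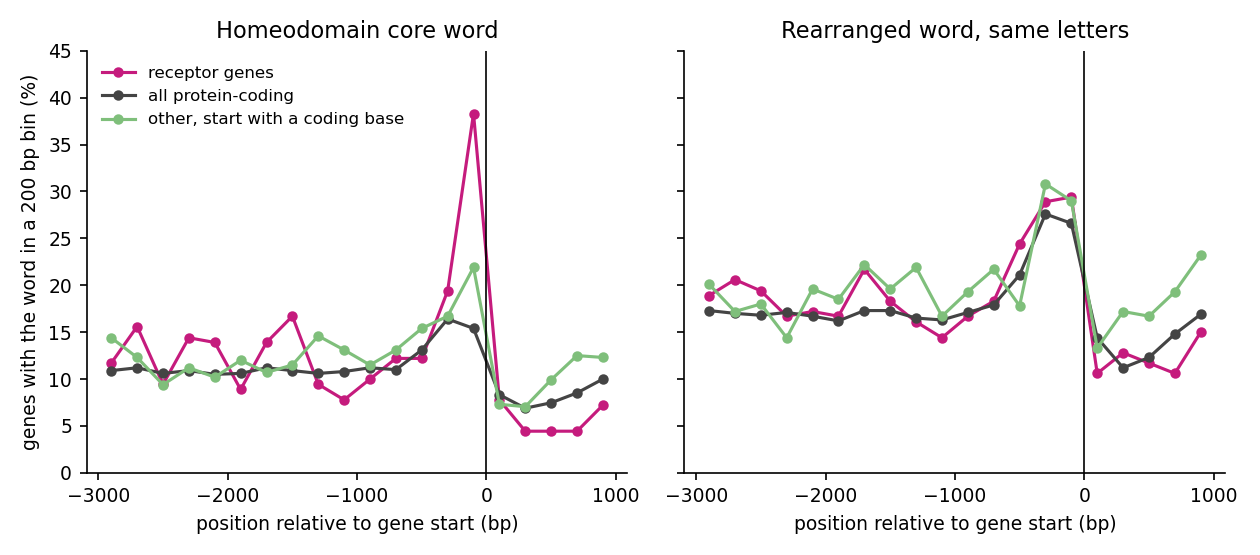
Share of genes (%) that hold the homeodomain core word (left) or a rearranged word with the same letters (right) in each 200 bp bin, against the position of the bin relative to the annotated gene start (bp), for 180 receptor genes, all protein-coding genes and 383 other genes that start with a coding base. The receptor line of the left panel reaches 38.3% in the bin directly upstream of the start, against 15.4% and 21.9% for the other lines, and the lines of the right panel lie close together in that bin.

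The annotated start of a receptor gene is often the first base of its coding sequence, because no untranslated exon is annotated. This held for 132 of 180 receptor genes (73.3%; 43 Or, 40 Gr and 49 Ir genes) and for 515 of 13945 protein-coding genes (3.69%). For such genes "upstream" and "transcription start site" (TSS) are measured from the start codon, and the true start may lie farther upstream. The word TAATTA had similar shares in both kinds of receptor gene, at 62 of the 132 (47%) and 22 of the 48 with an annotated untranslated start (45.8%), against 30.5% of the 383 other genes that start with a coding base and 22.4% of the 13382 others. Among the 105 receptor genes whose 5000 bp window overlaps that of no other receptor it was found for 43 (41%).

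Engrailed-GFP regions were sparse at receptor genes in the stringent list. In the gene body with 1000 bp upstream, 1 of 180 genes (0.556%, interval 0.0141% to 3.06%) had an IDR summit, against 14.3% of all protein-coding genes and 10.6% of the 2880 protein-coding genes whose length lies between the receptors' quartiles. That gene was Or88a, so the count was 1 of 60 for Or, 0 of 60 for Gr and 0 of 60 for Ir, and a count of 0 of 60 has an exact interval up to 5.96%. The share among the 383 other genes that start with a coding base was 1.57%, which lies within the receptors' interval. The 48 receptors with an annotated untranslated start had 0, which allows a share of up to 6.25%, against 14.8% of the other protein-coding genes of that kind. The part of the annotated start in the low count was not tested. In the merged windows the density of IDR summits was 1.61 per Mb at receptors, which is 1 summit in 622 kb. The gene Ir41a alone spans 104437 bp. The density was 20.1 per Mb over all protein-coding genes and 37.9 per Mb for those of similar length. For the other genes that start with a coding base it was 7.09 per Mb. With 5000 bp upstream the densities were 12, 19.5, 29.2 and 13.3 per Mb in the same order.

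With 5000 bp upstream, 14 of the 180 genes (7.78%, interval 4.32% to 12.7%) had an IDR summit, against 21.2% of all protein-coding genes and 18.1% of those of similar length. The share was 7.57% among the other genes that start with a coding base, which lies within the receptors' interval. The receptors with an untranslated start showed 4 of 48 (8.33%), against 21.8% of other genes of that kind, and the other receptors 10 of 132 (7.58%). The families had 7 Gr, 5 Ir and 2 Or genes with a summit, at 11.7% (interval 4.82% to 22.6%), 8.33% (2.76% to 18.4%) and 3.33% (0.406% to 11.5%), and these intervals overlap. None of the summits lay inside a receptor gene.

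**Figure D2:**
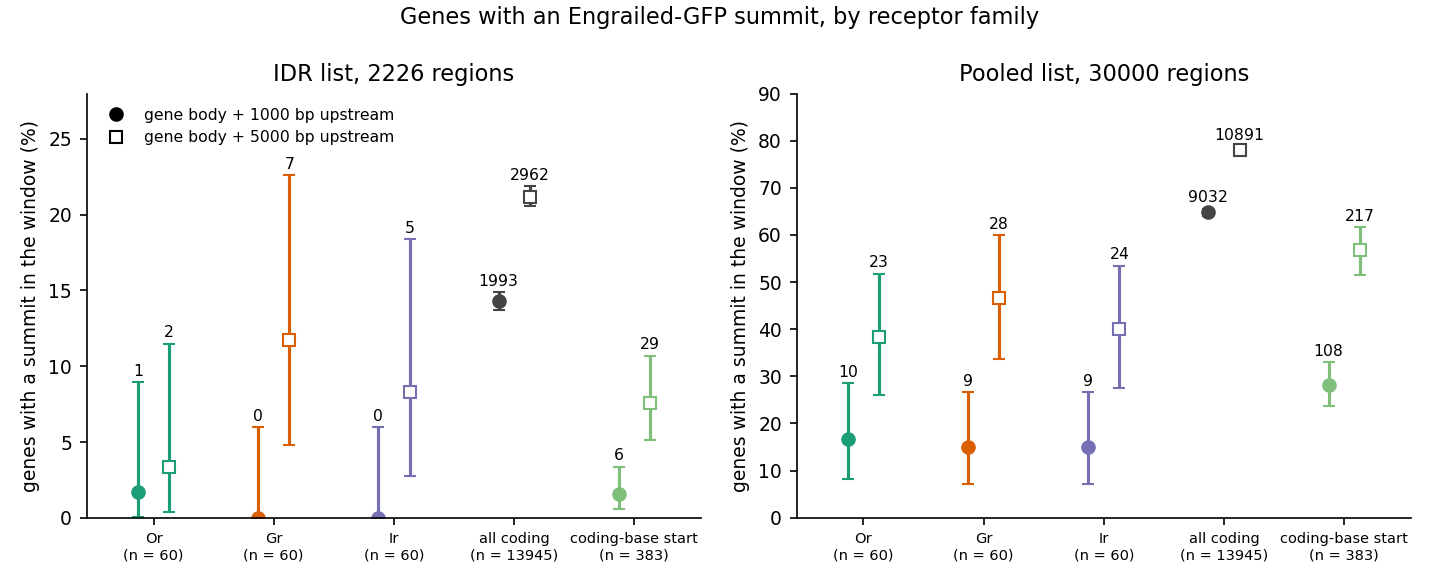
Share of genes (%) with a summit in the gene body plus 1000 bp (filled circles) or 5000 bp (open squares) upstream, in the IDR list (left) and the pooled list (right), for each receptor family, all protein-coding genes and other genes that start with a coding base. Bars are exact 95% intervals and the numbers are gene counts. In the pooled panel all 3 families lie below all coding genes at both window sizes, and their intervals overlap each other.

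The 15 pairs of gene and summit came from 14 distinct summits, and 6 of these lay within 500 bp of the TSS of a gene that is not a receptor. The Or88a summit (3R:14108654, signal 78.1, rank 1630 of the pooled list) lay 791 bp upstream of Or88a, a receptor for pheromone-like fatty acid esters (3R:14109445-14110823, plus strand). It lay closer, at 333 bp, to the TSS of CG12402, which is transcribed away from Or88a on the minus strand (3R:14104488-14108321). Its region ranked 1027 in replicate 1 (signal 42.6) and 1918 in replicate 3 (signal 43.5). The only IDR summit in the 1000 bp window of a receptor was therefore a region between a pair of divergent genes, nearer to the other one.

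The highest signal near any receptor lay upstream of Ir25a, the broadly used co-receptor of Ir proteins (2L:4830846-4835300, minus strand). Its summit at 2L:4837870 had signal 421 and rank 38, with rank 39 in replicate 1 (signal 167) and rank 40 in replicate 3 (signal 258). It lay 2570 bp upstream of Ir25a but 129 bp from the TSS of tank, in an untranslated exon of that gene, which is transcribed towards Ir25a and fills the space directly upstream of it. This summit thus belonged by position to the promoter of tank.

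The remaining 4 summits at promoters of neighbours lay far closer to that neighbour than to the receptor. For Gr61a, a glucose receptor of the sugar clade, the summit (signal 157, rank 419) lay 47 bp from the TSS of CG13901. For Ir54a it (signal 149, rank 482) lay 70 bp from PIG-A, an enzyme gene of GPI anchor synthesis. For Gr47b it (signal 71.7, rank 1865) lay 56 bp from CG12384, and its region ranked 6523 in replicate 1 and 1335 in replicate 3. These genes are not receptors, and the windows of the receptors reached over their promoters. For Ir7f the summit (signal 72.7, rank 1832) lay 113 bp from Acat1, the gene of an acetyl-CoA acetyltransferase.

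A further 5 summits lay inside another gene, farther than 500 bp from a TSS of a gene outside the families. The Gr5a window held a summit (signal 156, rank 426) in an intron of Tre1, a receptor gene needed for germ cell migration, 2542 bp upstream of Gr5a and 1117 bp from the TSS of Tre1. The Ir48c window held 2 summits (signals 159 and 68.6), both in an intron of ths, which encodes a fibroblast growth factor. Both were regions of a long developmental gene that Ir48c lies within (2R:11756817-11814424). The Ir76a summit (signal 73.1) lay in an intron of SREBP, a regulator of lipid synthesis genes, 537 bp from its TSS and thus just outside the 500 bp limit. The Or9a summit (signal 100) lay in an untranslated exon of nocte, a gene of clock entrainment by temperature, 2571 bp from the nearest TSS, that of Neb-cGP.

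The last 3 summits lay between genes, and all were near Gr genes on 3R. The summit upstream of Gr93a, a receptor required for the taste of caffeine, had signal 84.9 and lay 4111 bp from its start, with no nearer TSS of any gene. Its region ranked 681 in replicate 1 and 3730 in replicate 3, so the replicates placed it unevenly. The summit shared by Gr93c and Gr93d had signal 102 and lay 2489 bp upstream of Gr93d, again with no nearer TSS, with ranks of 1346 and 952 in the replicates. These 2 summits near the Gr93 genes were the only ones of the 14 whose nearest TSS was that of a receptor. The summit upstream of Gr94a had signal 81.3 and lay 2927 bp from Gr94a and 548 bp from CG17121, just outside the limit for a promoter.

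**Figure D3:**
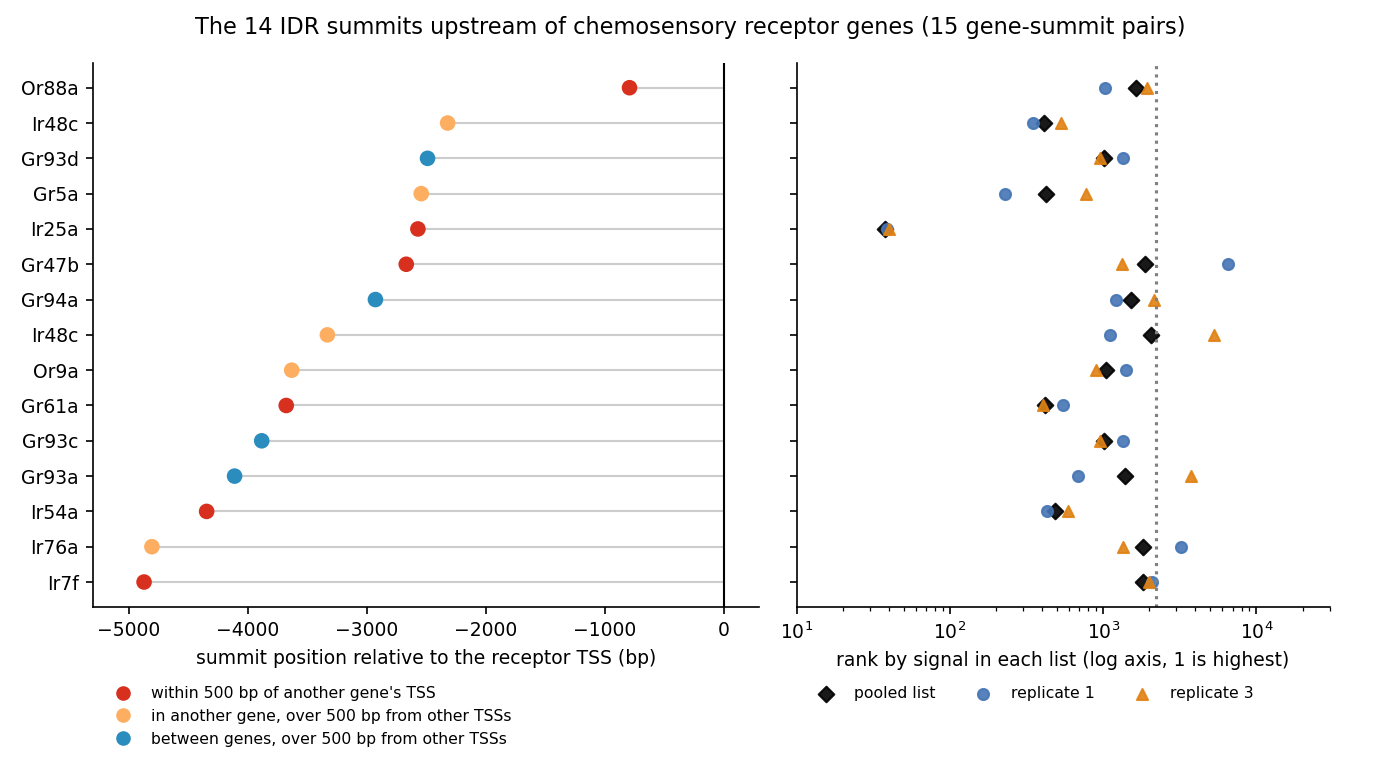
Left, position (bp) of each of the 14 IDR summits relative to the start of the receptor gene whose window holds it, coloured by where the summit lies with respect to other genes. Right, rank by signal (log axis) of the same region in the pooled list and in each replicate's list, with the dotted line at rank 2226. Or88a is the only gene with a summit within 1000 bp, and the Ir25a region has the highest rank, 38, in the pooled list.

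The 3′ side of receptor genes held 3 further IDR summits within 1000 bp beyond the gene end, a window examined after the data had been seen. The summit past Gr89a, a widely expressed bitter receptor gene, had signal 105 and lay 305 bp beyond its end and 1447 bp from its TSS, which was the nearest TSS. The summits past Ir31a (signal 114) and Ir68b (signal 264) lay 58 bp from the TSS of RpS27A, a ribosomal protein gene, and 12 bp from that of yps, a Y-box protein gene. Thus 1 of these 3 summits lay nearest to a receptor. The share of all protein-coding genes with an IDR summit past the gene end is not given, so the count of 3 cannot be read as high or low.

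At the annotated TSS itself the picture was the same. No receptor gene had an IDR summit within 500 bp of its TSS (0 of 180, which allows a share of up to 1.67%), against 9.68% of protein-coding genes and 1.04% of the other genes that start with a coding base. In the pooled list 12 receptors did (6.67%), against 51.2% and 16.4%. The median distance from a TSS to the nearest IDR summit was 36834.5 bp for receptors, 16115 bp for all protein-coding genes and 21819 bp for the other genes that start with a coding base. It was 45591.5 bp for Or, 35986 bp for Ir and 21802 bp for Gr genes. Within the families it ran from 791 bp at Or88a to 1135327 bp at Ir41a. The median distance from a receptor's TSS to that of a protein-coding gene outside the families was 4281 bp. Over all protein-coding genes the median to any other protein-coding gene was 1375 bp. These medians are not alike, because receptors were left out as neighbours only in the first. Whether spacing accounts for the low counts was not tested.

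**Figure D4:**
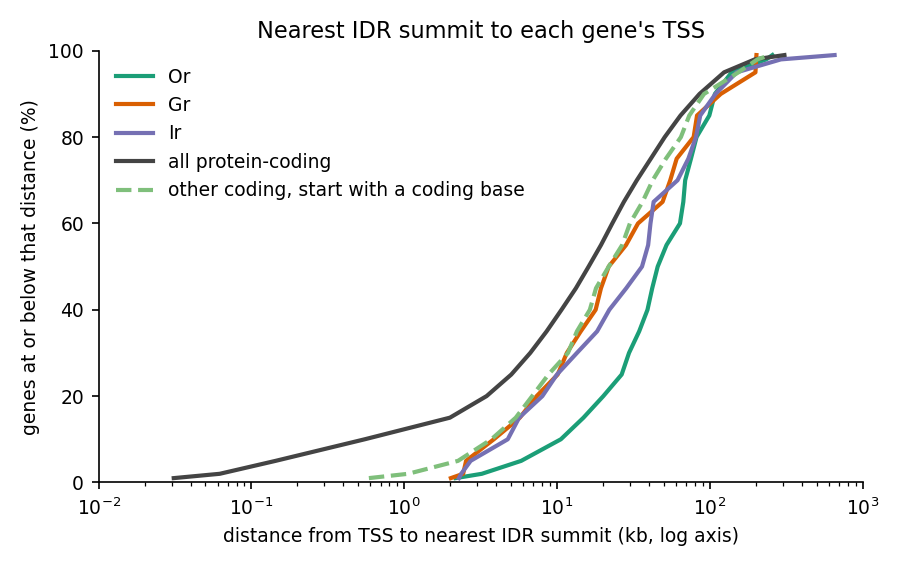
Cumulative share of genes (%) against the distance from the TSS to the nearest IDR summit (kb, log axis) for each receptor family, all protein-coding genes and other genes that start with a coding base. The Gr line and the dashed line of the other genes that start with a coding base reach 50% at nearly the same distance (21802 and 21819 bp), and the Or line reaches it farthest out, at 45591.5 bp.

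In the pooled list, which reaches far into background, 28 receptor genes (15.6%, interval 10.6% to 21.7%) had a summit in the 1000 bp window, against 64.8% of all protein-coding genes, 60.6% of those of similar length and 28.2% of the other genes that start with a coding base. The families had nearly equal counts, with 10 Or, 9 Gr and 9 Ir genes. Receptors with an annotated untranslated start showed 9 of 48 (18.8%) and those without showed 19 of 132 (14.4%), against 66.5% and 28.2% of the other protein-coding genes of each kind. In the 5000 bp window the count was 75 of 180 (41.7%), with 28 Gr, 24 Ir and 23 Or genes, against 78.1% of all protein-coding genes, 76.8% of those of similar length and 56.7% of the other genes that start with a coding base. For 105 receptors no pooled summit fell in the 5000 bp window, and for 75 none of the pooled and replicate lists had one.

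The receptors with a pooled summit mostly had weak ones. The median of the highest signal in the 1000 bp window was 19.4 for the 28 receptors and 35.1 for the protein-coding genes with a summit, in a list whose lowest signal is 16.7. It was 32 for protein-coding genes of similar length and 24.1 for the other genes that start with a coding base. Of the 39 distinct summits in receptor windows, 14 (35.9%) lay within 500 bp of the TSS of a gene outside the families. For 24 the nearest TSS was a receptor's, and for 10 of these 24 it lay within 500 bp. The 14 and the 24 overlap, as at Gr63a, where a summit lay 65 bp from its TSS and 232 bp from that of Lamtor4. Summits nearer to a neighbour but also within 500 bp of a receptor's TSS are not among the 10. In the receptor bodies 15 summits lay in coding exons, 4 in introns and 1 in an untranslated exon.

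**Figure D5:**
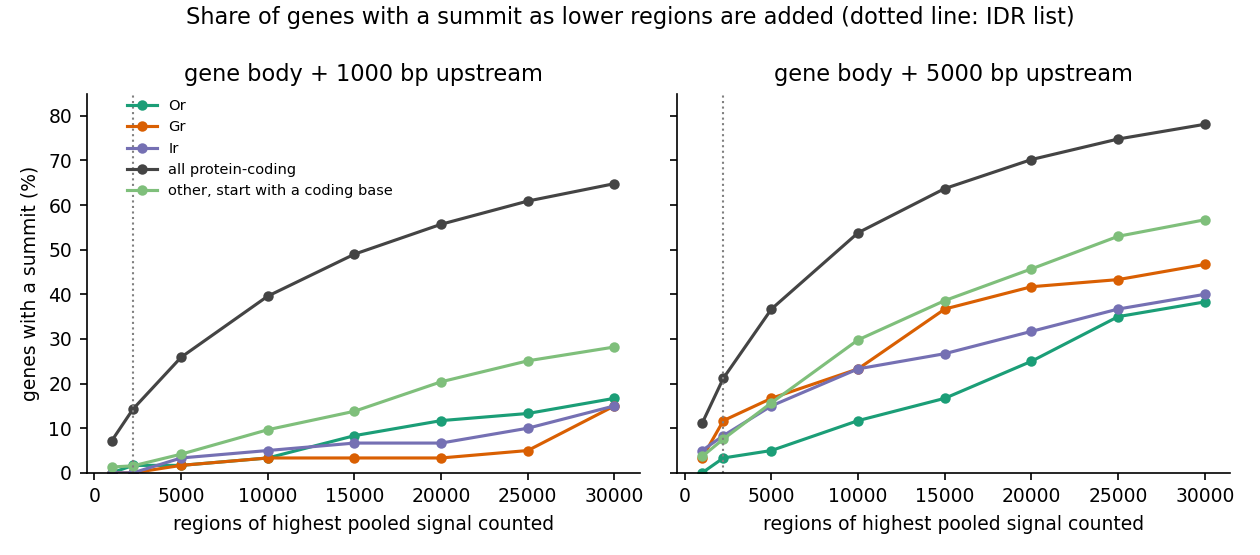
Share of genes (%) with a summit as more regions of the pooled list are counted, from the 1000 of highest signal to all 30000, with 1000 bp (left) or 5000 bp (right) upstream. The dotted line marks the 2226 regions of the IDR list. With 1000 bp upstream the receptor families stay below all coding genes at every number of regions shown and end between 15% and 16.7%.

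The replicates were compared through their own lists. With 1000 bp upstream, replicate 1 had a summit at 45 receptors (25%) and replicate 3 at 25 (13.9%). The shares of all protein-coding genes were 66.4% and 64.6%. A summit in both lists was found for 16 receptors (8.89%), against 56.2% of protein-coding genes. The replicates thus named different receptors more often than shared ones at this depth of the lists. Over all protein-coding genes most were shared, with 9263 genes in replicate 1, 9004 in replicate 3 and 7836 in both. With 5000 bp upstream the receptor counts were 93 (51.7%) and 68 (37.8%), against 82% and 78.6% of protein-coding genes. Both lists had a summit for 59 receptors (32.8%), against 73.3% of protein-coding genes.

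Outside the IDR list the 6 receptors with the highest pooled signal in the 1000 bp window were Ir60b, Ir60e, Gr63a, Ir21a, Gr39a and Orco. The Ir60b summit (signal 58.2, rank 2691) lay 7 bp from the TSS of Letm1, a gene of a mitochondrial inner membrane protein. The Ir60e summit (46.7, rank 4076) lay 39 bp from the TSS of CG13585. Both therefore lay at the promoter of a neighbour. The Gr63a summit (46.1, rank 4170; 1790 in replicate 1 and 16426 in replicate 3) lay 65 bp from the TSS of Gr63a, a subunit of the carbon dioxide receptor, and 232 bp from that of Lamtor4, a gene of lysosomal signalling. It was the nearest to its own TSS of these 6, but by the 500 bp rule it also lay at the promoter of Lamtor4. The Ir21a summit (41.5, rank 5140) lay in an intron, with signal 36.5 in replicate 3 and no region of replicate 1 at it. The highest Gr39a summit (39.7, rank 5602) lay in a coding exon, and the whole gene lies in an intron of Mondo, a sugar-responsive transcription factor gene.

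The co-receptors, which many sensory neurons share, are the most widely expressed members. Orco had 2 pooled summits upstream, the higher one at 641 bp with signal 34.9 (rank 7260), and replicate 1 had a region there (signal 24.1, rank 3099) while replicate 3 had none. Its nearest IDR summit lay 38695 bp away. Ir25a had, besides the summit at tank, a weak pooled summit (signal 17.1, rank 28795) 38 bp from its own TSS, and Ir8a and Ir93a had weak ones in coding exons (17.7 and 19.4). Ir76b had no pooled summit in the 5000 bp window. Of the 5 co-receptors 4 (80%) thus had a pooled summit in the 1000 bp window, against 64.8% of all protein-coding genes, and for Ir25a, Ir8a and Ir93a these ranked from 23311 to 28795 of 30000.

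The carbon dioxide receptors differed in the lists, since Gr21a had no pooled summit in the 5000 bp window and lay 28634 bp from the nearest, while Gr63a had the summit described above. Among the 9 sugar receptors, Gr5a and Gr61a (22.2%) had an IDR summit in the 5000 bp window, both in or at another gene, and this share is close to the 21.2% of all protein-coding genes. Gr43a, the fructose receptor, had a highest pooled signal of 46.9 (rank 4053) in that window. Of the 6 adjacent Gr64 genes, Gr64a, Gr64b and Gr64c reached 1 common pooled summit of signal 24.6 (rank 14985), and Gr64d, Gr64e and Gr64f reached none. Gr64b and Gr64c have the same annotated span, so they count as 1 place. Of the 5 broadly expressed bitter receptors 0 had an IDR summit in either window and 4 (80%) had a pooled one in the 5000 bp window, close to the 78.1% of all protein-coding genes.

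Larval Or genes and antennal Ir genes were each set beside the rest of their family. Of 25 larval Or genes, 0 had an IDR summit in the 5000 bp window, which allows a share of up to 12%, and 2 of the 35 other Or genes did (5.71%). Pooled summits in the 1000 bp window were found for 4 of the 25 (16%) and 6 of the 35 (17.1%). Of 16 antennal Ir genes, 2 (Ir25a and Ir76a, 12.5%) had an IDR summit in the 5000 bp window, and of the 44 other Ir genes 3 did (6.82%). For IDR summits in that window the share of all protein-coding genes was 21.2%, above these Or and Ir shares. Pooled summits in the 1000 bp window were found for 6 of the 16 antennal Ir genes (37.5%) and 3 of the 44 others (6.82%), both below the 64.8% of all protein-coding genes. These lists are small and no difference between them was tested.

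Receptor genes often lie in tandem, and their windows overlap. The 180 windows of 5000 bp formed 133 groups, of which 28 held 2 or more genes and 75 genes in all, and 13 groups had an IDR summit. The groups of Gr22a to Gr22d and of Ir52a to Ir52d held 4 genes each with no pooled summit in any window. In the group of Gr93b, Gr93c and Gr93d, 2 genes shared 1 IDR summit, as given above. Gr10a and Or10a have the same annotated span, so 1 place with pooled summits in the 5000 bp window counts in both the Gr and the Or family. The counts of genes therefore hold fewer independent places than genes.

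Receptors with and without the word TAATTA upstream had summits at similar shares. A pooled summit in the 1000 bp window was found for 14 of the 84 receptors with the word (16.7%) and 14 of the 96 without it (14.6%). Within 500 bp of the TSS the counts were 6 (7.14%) and 6 (6.25%). By family, with and without the word, they were 3 of 18 (16.7%) and 2 of 42 (4.76%) for Ir. For Or they were 0 of 29 and 2 of 31 (6.45%), and for Gr 3 of 37 (8.11%) and 2 of 23 (8.7%). The family counts are small and no difference was tested. Over all protein-coding genes, pooled summits in the 1000 bp window were found for 63.8% of those with the word and 65.1% of those without. Within 500 bp of the TSS the pooled shares were 51.3% and 51.2%. IDR summits within 500 bp were found for 9.86% and 9.63% of all protein-coding genes with and without the word. For receptors with and without the word the IDR count within 500 bp was 0.

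Other genes of chemosensation and the regulators of receptor choice were counted in the same way, from lists chosen by function. Of 21 regulators of receptor choice and proneural genes, 6 (28.6%) had an IDR summit in the 1000 bp window, against 14.3% of protein-coding genes. In the 5000 bp window the count was again 6 (28.6%), against 21.2%. Alh (signal 194), en (179), zf30C (136) and Sin3A (130) were highest. The list holds en itself and inv, whose summit lay 31882 bp from its own TSS and nearer, at 20293 bp, to that of en. The zf30C summit lay 32 bp from its TSS and the Alh summit 616 bp from its TSS. Of 51 odorant-binding protein genes, whose products carry odours in the fluid around sensory neurons, 1 had an IDR summit in the 1000 bp window (1.96%). It was Obp99b (signal 146, 248 bp from its own TSS). In the 5000 bp window Obp99c (71.4) made it 2 of 51 (3.92%), against 21.2% of protein-coding genes.

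Channel and transduction genes are read against the same shares of all protein-coding genes, 14.3% in the 1000 bp window and 21.2% in the 5000 bp window. Of 29 pickpocket channel genes 1 (3.45%; ppk29, signal 103, at the promoter of eEF5) had one in the 1000 bp window, and ppk7 (90.1) and ppk14 (95.6) had one in the 5000 bp window (3 of 29, 10.3%). Of 16 TRP channel genes 3 did (18.8%), Trpm (94.7), pyx (84.4) and wtrw (69.6), with summits 170 bp, 547 bp and 239 bp from their own TSSs, and the pyx summit lay nearer, at 236 bp, to the TSS of CG33229. In the 5000 bp window nompC (149) made it 4 of 16 (25%), with a summit 3597 bp from its own TSS and 369 bp from that of Acsf2. Of 13 ionotropic glutamate receptor genes, the relatives of the Ir genes, 1 (7.69%; Nmdar1, 69.8) had one in the 1000 bp window, 555 bp from the TSS of Itpr, and of 10 transduction and support genes 1 did (10%), Galphaq (67.6, at 2 bp from its TSS).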

How the data were processed

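The files were lists of regions on dm6 for 1 group of 2 ChIP-seq libraries. Per the labels and the deposited text descriptions, the authors sheared chromatin by sonication, called 30000 regions per replicate and for the pool, peaks and background together, against a control, and derived the IDR list from them. The aligner, the caller, the IDR threshold and the read depth are not given in the sources that were used here. Each region carries the authors' signal value and a −log10 q-value, which the deposited IDR list holds at 3.82 throughout; 3340 pooled regions share it. A summit is column 2 plus column 10, written 1-based. Genes came from Ensembl release 115, and all 180 receptors had the same start and end in RefSeq release 6.

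A gene window is the body plus 1000 or 5000 bp upstream; a promoter is 500 bp either side of any annotated TSS. Regions of a replicate were matched by overlap of at least 1 bp. The named genes were the receptors with an IDR summit, the 6 highest outside it, the co-receptors, carbon dioxide and sugar receptors, the neighbours of named summits, and up to 4 members with an IDR summit from each other list. Members and lists were chosen with earlier results of these data known. The genes that start with a coding base, the word searches and the genes in the sequence displays were added after the values were seen. Counts were made with Python 3.11.15, NumPy 2.4.6, pandas 2.3.3 and SciPy 1.17.1, and were checked on simulated regions. The 2 replicates were not stated to come from separate collections, so their agreement may be technical.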

Additional observations from a re-analysis of the deposited data

How the results depend on the processing

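Of 74 alternatives to the counts reported, 41 stayed within 1.5 times of the reported value and 33 moved further; the cause was not tested beyond what each alternative removes or adds. The count of 1 receptor with an IDR summit in the 1000 bp window became 0 in the 1113 IDR regions of highest signal, 2 with all 3340 pooled regions at the maximal q-value (Or88a and Ir60b), 2 when any overlap of the region counted, 0 when the nearest TSS had to be a receptor's, 0 without summits at a promoter of another gene, and 4 with 1000 bp downstream added, an alternative chosen after seeing the data. The share of all protein-coding genes with downstream added is not given, so that count of 4 has nothing to stand beside. With 1 replicate alone the count of 1 receptor became 2 to 4. For Or the same count became 0 in the higher part of the list and under both rules on neighbours. For Gr it was 0 to 1 and for Ir 1 to 2 with 1 replicate alone, and for Ir 1 at the maximal q-value and 1 with any overlap. The count of 14 in the 5000 bp window became 8 in the higher part of the list (1 Or, 4 Gr, 3 Ir), 3 with a receptor as the nearest TSS (0 Or, 3 Gr, 0 Ir) and 8 without promoters of others (1 Or, 2 Ir). The 14 distinct summits became 7 in the higher part, and the 6 at a neighbour's promoter became 8 to 10 with 1 replicate alone. The 28 genes with a pooled summit became 11 in the upper 15000 regions and 25 to 45 with 1 replicate, and their median highest signal of 19.4 became 39.7 and 11.6 to 16.3, the replicates' signals being on their own scales. In each list of 2226 regions the share over all protein-coding genes stayed between 14.2% and 14.3%, so the receptor count was below it with either replicate alone. No paired analysis was possible because there is only 1 group. With 60 genes a family, 0 genes with a summit has an exact interval up to 5.96%.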
